A study of Mus musculus with 11 samples.

Results

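The 7 striatal genes described here were followed by symbol through hippocampus RNA-seq of mice that carry a deletion of the Scn1a 1b regulatory region. All 7 genes were found in both count tables, among 24015 rows in the homozygous table and 24391 rows in the heterozygous table. They are Adora2a, Gpr6, Ppp1r1b, Rgs9, Pde10a, Six3 and Rarb. The hippocampus was taken from C57BL/6N mice at postnatal day 32 (the sample labels call it adult), and the deletion comes from a single mouse line made with Cas9 in oocytes. The libraries were made in 2 sequencing rounds. The homozygous round held 2 WT mice, both female, and 2 1b-/- mice, a male and a female. The heterozygous round held 3 WT mice, all male, and 4 1b+/- mice, of which 3 were male and 1 was female. The deletion is carried in the germline, the labels name no treatment, and the rounds differ in read type (short single-end reads in the homozygous round, longer paired-end reads in the heterozygous round). Each comparison therefore stays within a round.

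Medium spiny neurons are the GABAergic projection neurons that make up most of the striatum. Dopamine acts on them through Drd1 in the direct pathway and through Drd2 in the indirect pathway, the first raising and the second lowering cAMP. The genes described here stand along that route. Adora2a and Gpr6 are receptors of the indirect pathway, Ppp1r1b, Rgs9 and Pde10a act inside the cell on G protein, cAMP and phosphatase signalling, and Six3 and Rarb are transcription factors used in striatal development. The hippocampus has no medium spiny neurons and is known for low levels of most of these transcripts, although Pde10a and Ppp1r1b are also made there at a modest level.

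Library totals ran from 20667122 to 36145161 counts in the homozygous round and from 22852858 to 28285623 in the heterozygous round. Values are CPM (counts scaled to library size, with TMM factors within a round) unless RPKM is named. Standard errors are written SE, and an adjusted p comes from edgeR's quasi-likelihood (QL) fit, adjusted by Benjamini-Hochberg over all genes tested. Scn1a, the targeted gene, stood at 134 and 173 CPM in the WT and at 26.3 and 16.7 CPM in the 1b-/- libraries. Most listed markers of hippocampal neurons went against the tissue label in both WT libraries of the homozygous round. The 3 named next had the largest log2 change of their lists in this comparison. C1ql2, a dentate granule cell gene, was at 1.78 and 1.85 CPM there, at 71.7 and 78.9 CPM in 1b-/- mice and at no less than 33.8 CPM in any mouse of the heterozygous round. Fibcd1 of CA1 pyramidal cells was at 10.2 and 18.6 CPM in these WT libraries and at no less than 99.8 CPM in the other 9, and Iyd of CA3 pyramidal cells was at 0.316 and 0.468 CPM against at least 2.47 CPM in the other 9. Not every listed marker did so. Pdzd2 of the dentate list was at 84.2 and 124 CPM in these WT libraries against 47.9 and 73.1 CPM in 1b-/- mice. Elavl2 of the CA3 list overlapped, at 44.1 and 65.3 CPM against 56.4 and 68.5 CPM. The homozygous comparison rests on these WT libraries. It cannot be made without them, and every value below for 1b-/- against WT has this limit.

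In 1b-/- hippocampus all 7 genes were lower than in the WT mice of the same round, by between 3.38 and 6.43 on the log2 scale, and 4 of the 7 passed the threshold of 0.05 for the adjusted p over 14838 genes. Adora2a, Rgs9, Pde10a and Rarb were called lower than in these WT mice, while Gpr6, Ppp1r1b and Six3 were lower but did not pass the test. Over all genes tested, 3.58% were called in either direction and 1.52% were called lower. Both 1b-/- libraries lay below both WT libraries for 7 of 7 genes, an arrangement seen for 30.2% of all genes tested. In bulk tissue, fewer cells of a type and less RNA per cell cannot be told apart, and neither can be told apart from a different share of striatal tissue in the dissected piece.

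**Figure D1:**
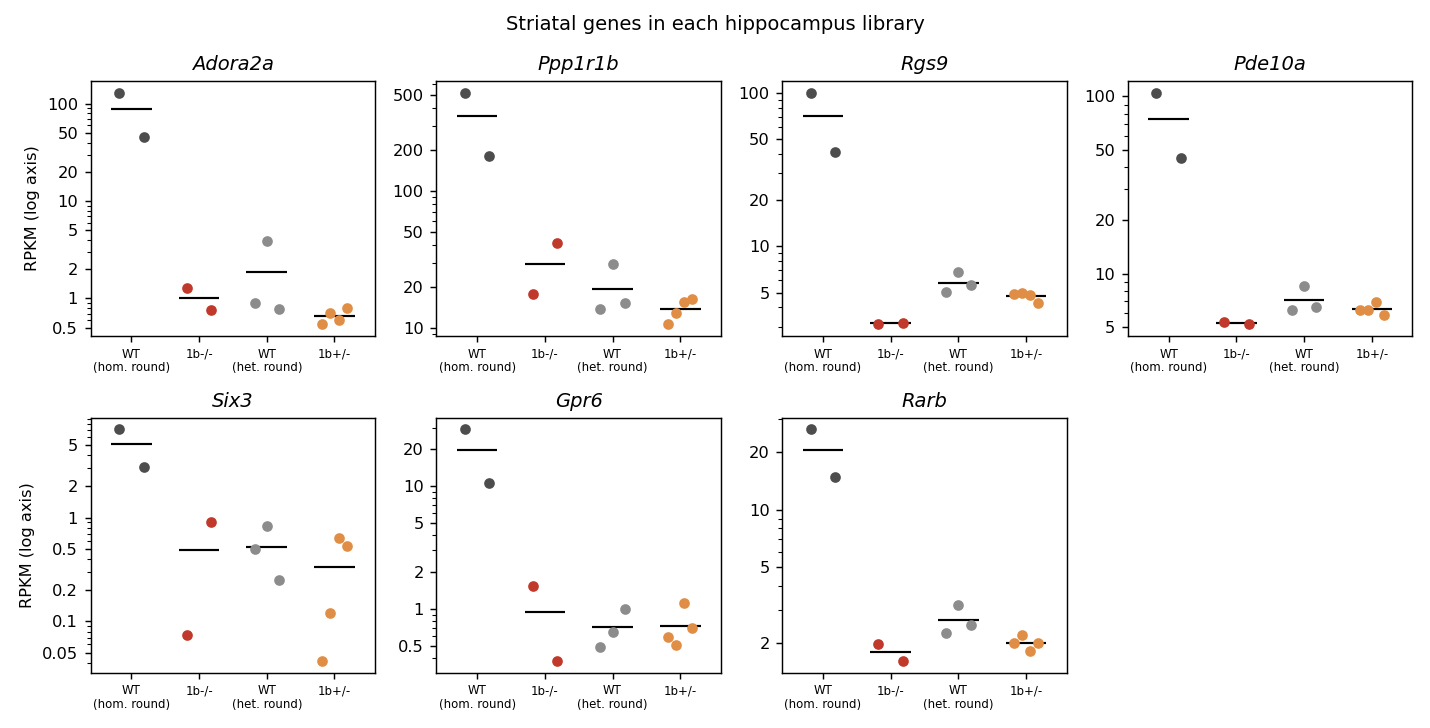
RPKM on a log axis for each of the 7 genes in every library, by group, with a black line at the group mean. The 2 WT libraries of the homozygous round (dark grey) lie above the other 9 libraries in every panel, from 14.9 and 26.4 RPKM for Rarb to 179 and 522 RPKM for Ppp1r1b.

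Adora2a encodes an adenosine receptor that couples to the stimulatory G protein and opposes Drd2 in indirect pathway neurons. The gene (ENSMUSG00000020178.5) spans positions 74779688 to 74797533 on the plus strand of chromosome 10 in mm9. It stood at 336 and 117 CPM in the WT libraries and at 3.26 and 1.97 CPM in the 1b-/- libraries. The groups were more than an order of magnitude apart, and the 1b-/- mean was 1.16% of the WT mean. The change on the log2 scale was -6.43 (SE 0.66, edgeR QL adjusted p = 0.0223), the largest of the 7 genes in this comparison.

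Gpr6, an orphan receptor that keeps cAMP high in indirect pathway neurons, is a short gene from 40789795 to 40792091 on the minus strand of chromosome 10. Its RefSeq promoter (300 bases of the GRCm38.p6 annotation, 250 before and 50 after the start site) holds a full cAMP response element, TGACGTCA, which begins 78 bases before the start. This element was searched on both strands and was present in 1.79% of 32851 RefSeq promoters of the same length. It is shown because Gpr6 was the only member of the 5 with a promoter in the table that had it. The capitals mark the element, and the 30 bases match mm9 at chr10:40792156-40792185 on the minus strand.
Gpr6: aacccagagccTGACGTCAccggaccccgc

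The level of Gpr6 was 52.4 and 19.0 CPM in the WT libraries and 2.75 and 0.689 CPM in the 1b-/- libraries, the last from 22 counts. The groups did not overlap, and 1b-/- replicate 1 had 4.0 times the level of replicate 2. Its log2 change was -4.36 (SE 0.80) and did not pass the threshold, with an edgeR QL adjusted p of 0.0560.

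Ppp1r1b encodes DARPP-32, the phosphatase inhibitor that cAMP-dependent kinase switches on in medium spiny neurons. The gene spans 98209718 to 98219110 on the plus strand of chromosome 11, and 1700003D09Rik overlaps it on the opposite strand, so reads of the pair are uncertain where the strand setting of the counting is not known. Its levels were 1555 and 532 CPM in the WT libraries and 52.3 and 125 CPM in the 1b-/- libraries. Ppp1r1b had the highest CPM of the 7 genes in WT replicate 1 and stood below Pde10a in WT replicate 2, and the 1b-/- libraries differed 2.38-fold from each other. Ppp1r1b had a log2 difference of -3.56 (SE 0.68), with an edgeR QL adjusted p of 0.0589.

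Rgs9 encodes a regulator of G protein signalling whose long splice form shortens dopamine receptor signals in striatum. It spans 109086669 to 109159443 on the minus strand of chromosome 11. WT libraries held 652 and 268 CPM of Rgs9, and 1b-/- libraries held 20.1 and 20.96 CPM. The 1b-/- values nearly coincided, whereas the WT values differed 2.43-fold. Rgs9 had a log2 fold change of -4.49 (SE 0.47, edgeR QL adjusted p = 0.0223).

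Pde10a encodes the phosphodiesterase that breaks down cAMP and cGMP in medium spiny neurons. It spans 8718237 to 9179513 on the plus strand of chromosome 17, with the 3 predicted genes Gm15425, Gm15426 and Gm17087 on the opposite strand, so its reads carry the same uncertainty as those of Ppp1r1b. Its level was 1348 and 575 CPM in the WT and 68.5 and 67.3 CPM in the 1b-/- libraries. As with Rgs9, the 1b-/- pair was tight and the WT pair was not. Mutant minus WT, the log2 value was -3.83 (SE 0.44, edgeR QL adjusted p = 0.0266).

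Six3 is a homeobox factor needed in the ventral telencephalon for indirect pathway neurons. It spans 86012948 to 86031153 on the plus strand of chromosome 17, beside its annotated opposite-strand partner Six3os1, and its reads are uncertain in the same way. The WT libraries had 63.1 and 27.6 CPM, and the 1b-/- libraries had 0.653 and 8.08 CPM. The groups did not overlap, but 1b-/- replicate 2 was 12.4 times replicate 1, the widest gap inside a group of the homozygous round among the 7 genes. For Six3 the log2 difference was -3.38 (SE 1.08) and was not called (edgeR QL adjusted p = 0.134). The summed level of 7 choroid plexus genes, led by the transthyretin gene Ttr, had the same order as Six3 in the 1b-/- pair and the opposite order in the WT pair. Scaled over all 11 libraries, the sum in CPM was 60.8 in 1b-/- replicate 1 and 13280 in replicate 2, and 53.2 and 3379 in WT replicates 1 and 2. Its part in the Six3 values was not tested.

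Rarb encodes retinoic acid receptor beta, which binds DNA with a retinoid X receptor partner and is used in striatal development. It spans 17263356 to 17651381 on the minus strand of chromosome 14. A direct repeat of GTTCA, the core of the half-site of a retinoic acid response element, begins 52 bases before a RefSeq start of Rarb. The 6 bases between the copies include the first base of the second half-site, which the searched copies leave out. The repeat was searched on both strands and lies in 0.0761% of the 32851 promoters, and Rarb was the only member with it. It is shown because Rarb is itself known as a retinoic acid target, and the capitals mark both copies. The 30 bases match mm9 at chr14:17408020-17408049 on the minus strand.
Rarb: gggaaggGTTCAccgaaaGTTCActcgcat

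Rarb was at 88.4 and 49.8 CPM in the WT libraries and at 6.67 and 5.48 CPM in the 1b-/- libraries. Its WT pair differed 1.77-fold, the least of the 7 genes, and its fold change had the smallest error. On the log2 scale the change was -3.51 (SE 0.32, edgeR QL adjusted p = 0.0207).

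The WT libraries were not alike. WT replicate 1 exceeded WT replicate 2 for each of the 7 genes, by 1.77-fold for Rarb to 2.92-fold for Ppp1r1b, and the 7 genes together took up 0.417% of its counts against 0.164% in replicate 2. In the other 9 libraries that share ran from 0.0147% to 0.0256%. An exact permutation test of mean CPM (two-sided) gave p = 0.333 for every gene, which is the smallest p that 2 mice against 2 allow. Leaving out WT replicate 1 left 0 of the 7 genes called by edgeR's QL test, with adjusted p from 0.0505 to 0.297 and log2 fold changes from -5.47 to -2.58. In that fit 6 of the 7 had an unadjusted p under 0.05 and 0 of 14680 genes were called in all. With every library kept, 7 of the 7 genes had an unadjusted p under 0.05 in the QL test, as had 3922 of all 14838 genes tested. Without 1b-/- replicate 1 the log2 fold changes of the 7 genes ran from -6.84 to -2.49, and without 1b-/- replicate 2 from -6.11 to -3.37.

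**Figure D2:**
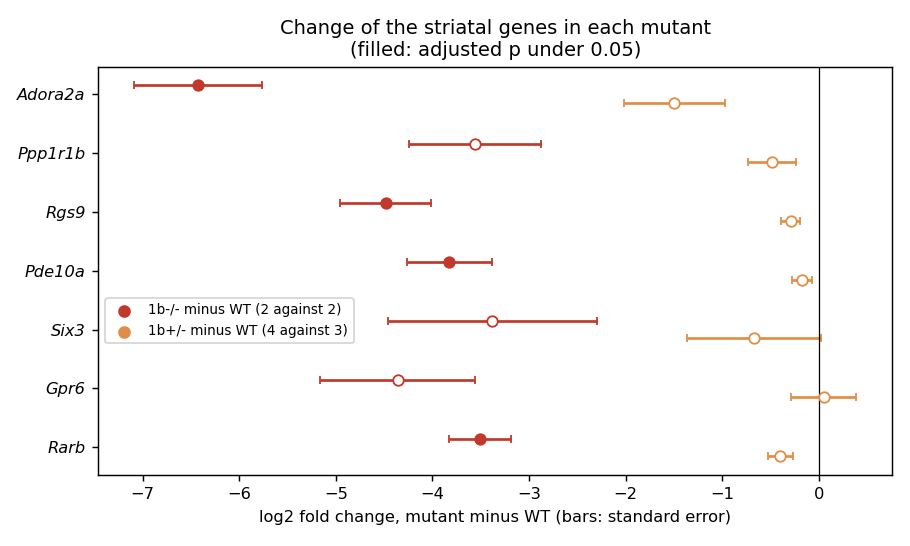
Log2 fold change (mutant minus WT) with its standard error for each gene in the homozygous (red) and the heterozygous comparison (orange), filled where the adjusted p is under 0.05. The red points lie from -6.43 to -3.38, and the orange points from -1.5 to 0.05 with none filled.

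In 1b+/- hippocampus, 0 of the 7 genes were called by edgeR's QL test, as were 0.0% of the 14630 genes tested, of which 1649 had an unadjusted p under 0.05. DESeq2 and edgeR's likelihood ratio test also called 0 of the 7. Scn1a, the targeted gene, was not called by the QL test either. Its log2 fold change was -0.47 (SE 0.15, edgeR QL adjusted p = 0.303), and its groups overlapped. The 3 genes Adora2a, Rarb and Rgs9 had an unadjusted p under 0.05, and 6 of the 7 estimates were below 0, with a median of -0.40. Without WT replicate 2, 0 of the 7 had an unadjusted p under 0.05 and the median was -0.16. Every 1b+/- library lay below every WT library for Rgs9 and Rarb, which makes 2 of the 7 genes against 6.25% of all genes tested.

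Adora2a stood at 2.23, 9.71 and 1.94 CPM in WT replicates 1 to 3 and at 1.34, 1.76, 1.49 and 1.95 CPM in 1b+/- replicates 1 to 4. WT replicate 2 stood alone at 5.25 times the median of the other 6 libraries, which spread only from 1.34 to 2.23 CPM. Its change was -1.5 on the log2 scale (SE 0.52, edgeR QL adjusted p = 0.335) with that library and -0.34 (SE 0.22, adjusted p = 0.736) without it.

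Rgs9 was at 31.2, 42.3 and 34.8 CPM in the WT libraries and at 30.2, 30.9, 30.1 and 26.8 CPM in the 1b+/- libraries. The groups did not overlap, although WT replicate 1 and 1b+/- replicate 2 were nearly equal. Its log2 fold change was -0.29 (SE 0.10, edgeR QL adjusted p = 0.325), and the two-sided exact permutation p was 0.0286, the smallest that 35 splits allow. Without WT replicate 2 the estimate was -0.16 (SE 0.08, adjusted p = 0.636).

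Rarb gave 7.29, 10.2 and 8.02 CPM in the WT libraries and 6.41, 7.08, 5.87 and 6.44 CPM in the 1b+/- libraries, again with no overlap. The change on the log2 scale was -0.40 (SE 0.13, edgeR QL adjusted p = 0.306), with the same exact permutation p of 0.0286. Without WT replicate 2 it was -0.24 (SE 0.12, adjusted p = 0.636). Neither permutation p is adjusted for the 7 genes compared in this way.

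Ppp1r1b was at 39.1, 82.8 and 43.2 CPM in the WT libraries and at 30.3, 36.3, 44.4 and 46.0 CPM in the 1b+/- libraries. Apart from WT replicate 2, the groups overlapped. Pde10a was at 77.0, 105.3 and 79.3 CPM in the WT libraries and at 76.6, 76.4, 84.6 and 71.7 CPM in the 1b+/- libraries, also overlapping. Without WT replicate 2 the log2 fold changes were -0.06 for Ppp1r1b (SE 0.16) and -0.01 for Pde10a (SE 0.07), against -0.49 (SE 0.25) and -0.17 (SE 0.11) with it.

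Six3 ranged most widely. It was at 4.28, 7.06 and 2.12 CPM in the WT libraries and at 0.354, 1.03, 5.36 and 4.53 CPM in the 1b+/- libraries, a 19.9-fold range over the 7 libraries. The groups overlapped, and the log2 fold change was -0.67 (SE 0.69, edgeR QL adjusted p = 0.758). The lowest library, 1b+/- replicate 1, rested on 9 counts of Six3 and also had the lowest summed choroid plexus level of the round, 63.2 CPM against 781 to 2737 CPM in the other 6 libraries (scaled over all 11 libraries). The next lowest in Six3, 1b+/- replicate 2, had a choroid plexus sum of 1231 CPM. That was above WT replicate 1 (781 CPM) and WT replicate 2 (980 CPM), which was highest in Six3. The part of these markers was not tested.

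Gpr6 was near the limit of the filter at 0.849, 1.11 and 1.72 CPM in the WT libraries and 1.02, 0.880, 1.92 and 1.22 CPM in the 1b+/- libraries, from 24 to 49 counts. These ranges largely overlapped, and the log2 fold change was 0.05 (SE 0.34, edgeR QL adjusted p = 0.973). It was also the only member that was not highest in WT replicate 2.

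**Figure D3:**
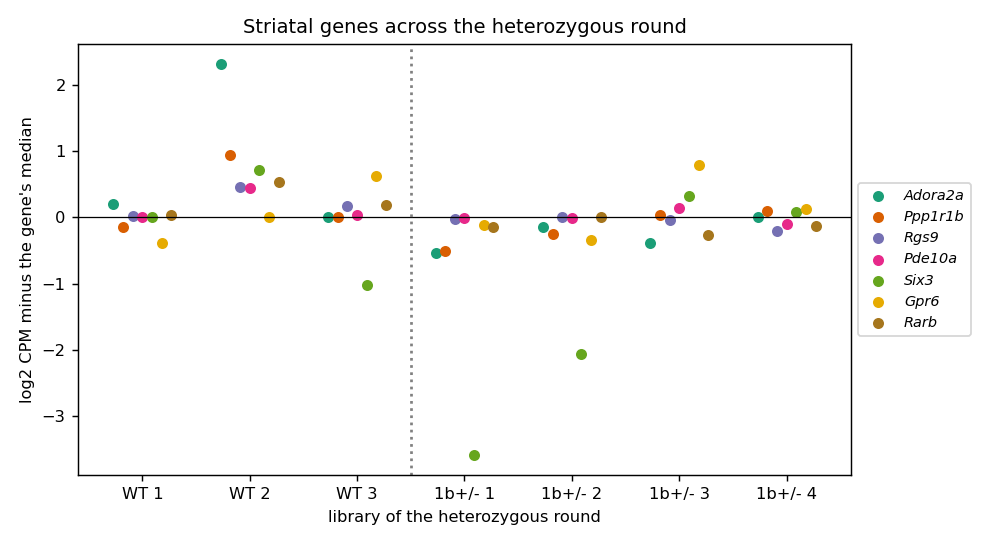
Log2 CPM of each gene minus its median over the 7 libraries of the heterozygous round, WT to the left of the dotted line and 1b+/- to the right. WT replicate 2 is above 0 for Adora2a, Ppp1r1b, Rgs9, Pde10a, Six3 and Rarb, and the lowest points are Six3 in 1b+/- replicates 1 and 2.

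The difference between the effects, 1b-/- minus 1b+/-, was tested over all 11 libraries with a level for each group. All 7 differences were below 0, and 6 of the 7 genes were called by edgeR's QL test over 14906 genes. In this test 27.3% of all genes were called in either direction and 13% were called lower. The differences ran from -4.93 for Adora2a (SE 0.96, adjusted p = 0.00465) to -3.08 for Ppp1r1b (SE 0.68, adjusted p = 0.00824). Six3 had -2.73 (SE 1.37, adjusted p = 0.165) and was called in 1 of 18 alternative fits, the one without 1b-/- replicate 2. The round, the sex of the mice and the read type go with the genotypes here, so the rounds and the genotypes cannot be told apart in the levels themselves.

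Levels were compared between genes per length, as RPKM from CPM scaled over all 11 libraries and the exon length of each gene. In the WT mice of the homozygous round the order was Ppp1r1b at 350 ± 242 RPKM, Adora2a at 87.9 ± 60.0, Pde10a at 75.1 ± 42.5, Rgs9 at 70.8 ± 41.6, Rarb at 20.6 ± 8.09, Gpr6 at 19.8 ± 13.1 and Six3 at 5.09 ± 2.81 RPKM (mean ± SD, n = 2). Ppp1r1b stood clear of the next gene, while Adora2a, Pde10a and Rgs9 overlapped one another, as did Rarb and Gpr6. In 1b-/- mice the order changed. Ppp1r1b remained first at 29.5 ± 16.8 RPKM, then came Pde10a at 5.27 ± 0.119, Rgs9 at 3.15 ± 0.0587, Rarb at 1.81 ± 0.268, Adora2a at 1.01 ± 0.363, Gpr6 at 0.954 ± 0.815 and Six3 at 0.486 ± 0.583 RPKM (mean ± SD, n = 2). Adora2a thus moved down the order, behind Pde10a, Rgs9 and Rarb, and it overlapped Gpr6, which in turn overlapped Six3.

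The WT mice of the heterozygous round had the same order as the 1b-/- mice. Ppp1r1b was at 19.3 ± 8.48 RPKM, Pde10a at 7.11 ± 1.28, Rgs9 at 5.80 ± 0.912, Rarb at 2.65 ± 0.475, Adora2a at 1.88 ± 1.79, Gpr6 at 0.711 ± 0.258 and Six3 at 0.527 ± 0.291 RPKM (mean ± SD, n = 3). Pde10a and Rgs9 overlapped, as did each neighbouring pair from Rarb down to Six3. In 1b+/- mice the means were 13.8 ± 2.57 RPKM for Ppp1r1b, 6.30 ± 0.439 for Pde10a, 4.74 ± 0.297 for Rgs9, 2.01 ± 0.154 for Rarb, 0.730 ± 0.266 for Gpr6, 0.662 ± 0.111 for Adora2a and 0.331 ± 0.293 for Six3 (mean ± SD, n = 4). Gpr6 and Adora2a overlapped there, as did Adora2a and Six3.

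Set across rounds as a description, the WT mice of the homozygous round had between 7.49 times (Rarb) and 53.3 times (Adora2a) the level of the WT mice of the heterozygous round, as ratios of geometric mean CPM scaled over all 11 libraries. The 1b-/- mice had between 0.547 times (Rgs9) and 1.48 times (Ppp1r1b) that level. The 1b-/- mean was nearer to the WT mean of the heterozygous round than to the WT mean of its own round for 7 of 7 genes, which held for 42.6% of the 14906 genes tested. The rounds differ in read type, so these ratios carry no test.

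The proportion of Adora2a to Pde10a also differed. For each 100 counts of Pde10a there were 24.9 and 20.3 counts of Adora2a in the WT libraries of the homozygous round and 4.77 and 2.93 in 1b-/- mice. Over the heterozygous round the figure was 9.23 in WT replicate 2 and between 1.75 and 2.89 in the other 6 libraries. Adora2a, a gene of the indirect pathway, and Pde10a, a gene of both pathways, therefore did not keep a single ratio over the libraries.

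Across the 7 libraries of the heterozygous round, log2 CPM were correlated for the 21 pairs of genes. Pearson's r was positive for 19 of the 21 pairs, with a median of 0.72 and a range from -0.19 to 0.92, and Spearman's rho ran from -0.25 to 0.93. By exact permutation 4 pairs had an unadjusted p under 0.05 for r, and 0 pairs passed after adjustment over the 21 pairs (smallest adjusted p = 0.121 by permutation). Without the 2 libraries farthest from the median of the x gene, r was positive for 12 of the 21 pairs. For Adora2a and Ppp1r1b r changed from 0.92 (unadjusted permutation p = 0.0242, adjusted 0.127, rho 0.64 with an unadjusted permutation p of 0.139) to -0.20 without WT replicate 2 and 1b+/- replicate 1, so the relation rested on those samples. For Rgs9 and Rarb r was 0.92 (unadjusted permutation p = 0.00595, adjusted 0.121, rho 0.89 with an unadjusted permutation p of 0.0123) and was 0.85 without WT replicate 2 and 1b+/- replicate 4. These 2 genes were also the pair whose groups did not overlap in this round.

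Other genes of medium spiny neurons were also lower in the 1b-/- mice. Of 18 genes used in both pathways, all 18 were lower in 1b-/- mice and 13 were called, with a median log2 fold change of -2.32, where the median over all genes tested was -0.00. Among them were Scn4b, a sodium channel beta subunit, with -5.44 (SE 0.64), Rxrg, a partner of retinoic acid receptors, with -4.01 (SE 0.37), and the transcription factor Foxp1 with -1.89 (SE 0.22), all called by edgeR's QL test. Of 8 direct pathway genes, 7 were lower and 5 were called, all lower, with a median of -3.34. Drd1, the dopamine D1 receptor, had -4.29 (SE 0.38), Tac1, the substance P precursor, had -4.41 (SE 0.37), Slc35d3 had -4.95 (SE 0.54) and Chrm4, a muscarinic receptor, had -2.02 (SE 0.30). The exception was Eya1, which was not called at 0.78 (SE 0.20). Of 4 indirect pathway genes all 4 were lower and 3 were called, with a median of -4.44. Penk, the enkephalin precursor, had -4.80 (SE 0.58), Drd2 had -4.96 (SE 0.63) and Gpr52 had -4.09 (SE 0.58), while Sp9, with -0.87 (SE 0.48), was not called. Both pathways were thus represented among the called genes, and the lists were drawn up with earlier results of these libraries known. Without WT replicate 1, 0 of these genes were called, since 0 genes passed in that fit.

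**Figure D4:**
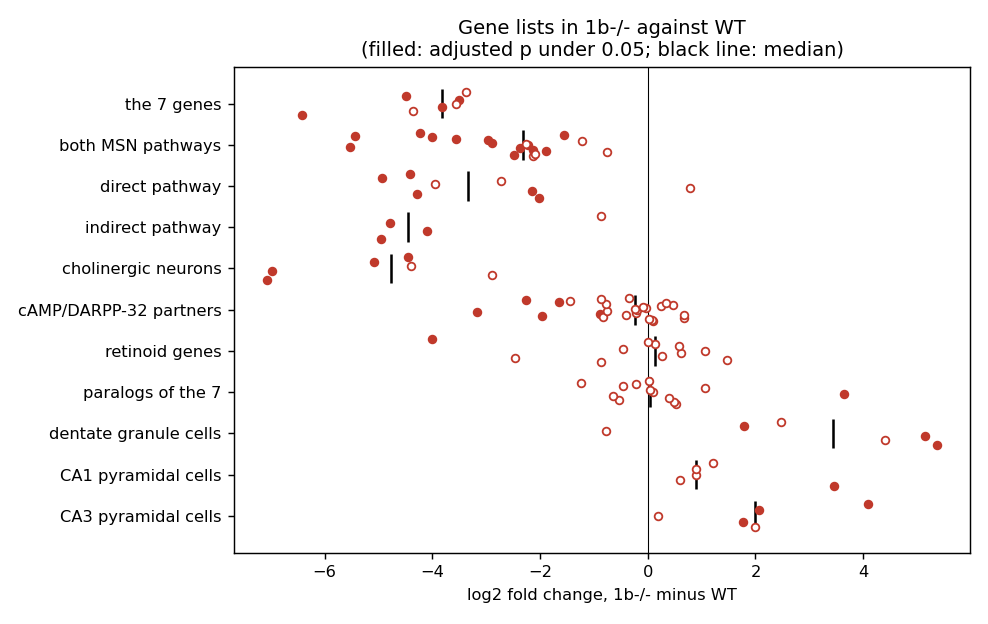
Log2 fold change in 1b-/- against WT for the genes of each list, a point per gene, filled where the adjusted p is under 0.05, with a black line at the median. Lists of medium spiny and cholinergic neurons have medians from -4.76 to -2.32, with Eya1 of the direct pathway alone to the right of 0, the cAMP, retinoid and paralog lists have medians from -0.23 to 0.14, and hippocampal lists have medians from 0.90 to 3.44.

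Partners of the 7 gene products were listed apart. Of 25 tested genes of cAMP, G protein and phosphatase signalling and of adenosine handling, 17 were lower and 8 higher, and 5 were called, all lower, with a median log2 fold change of -0.23. They were Rgs4, a regulator of G protein signalling (980.6 ± 164 CPM in WT and 206 ± 11.9 CPM in 1b-/- mice, SD, n = 2 each), the phosphodiesterases Pde4b and Pde7b, Nt5e, which makes adenosine from AMP, and Prkar2b, a regulatory subunit of cAMP-dependent kinase. None of the catalytic subunits of protein phosphatase 1, which DARPP-32 inhibits, was called (Ppp1ca -0.75, Ppp1cb -0.20 and Ppp1cc -0.23 on the log2 scale). Of 13 tested paralogs of the 7 genes, 5 were lower and 8 higher, with a median of 0.04. Pde11a was called, at 3.64 (SE 0.44). Adora1, the adenosine A1 receptor of hippocampal synapses, had 0.53 (SE 0.12, edgeR QL adjusted p = 0.0774). The paralogs of Rgs9 had -1.24 (SE 0.31) for Rgs6, 0.03 (SE 0.18) for Rgs7 and -0.22 (SE 0.16) for Rgs11, none of them called. Of 11 tested retinoid genes, 4 were lower and 7 higher and only Rxrg was called, with a median of 0.14.

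Markers of other cell types differed between the same libraries. Of 6 cholinergic neuron genes all 6 were lower in 1b-/- mice and 4 were called, and their summed level was 43.5 and 102 CPM in the WT libraries of the homozygous round, from 1.76 to 2.74 CPM in 1b-/- mice and from 1.997 to 11.7 CPM in the heterozygous round. No gene of this list was at 0 in every library of a group. Of 6 dentate granule cell genes 5 were higher and 3 were called, of 5 CA1 genes all 5 were higher and 1 was called, and of 5 CA3 genes all 5 were higher and 3 were called. The summed CA1 level was 330 to 331 CPM in the WT libraries and 640 to 911 CPM in the 1b-/- libraries. The summed CA3 level was 106 to 144 CPM against 296 to 364 CPM, and the summed dentate level 106 to 140 CPM against 234 to 299 CPM. Of 6 neocortex genes 5 were lower and 2 were called, Rspo1 and Rorb, with summed levels of 281 to 379 CPM in the WT and 120 to 244 CPM in the 1b-/- libraries. Of 7 GABAergic neuron genes 6 were lower and Gad2 alone was called, at 1113 to 1377 CPM summed against 774 to 876 CPM. Gad1, Gad2 and Slc32a1 of this list are not particular to interneurons, and medium spiny neurons are GABAergic too. The others had -1.07 (Pvalb), -0.45 (Vip), -0.27 (Lhx6) and 0.24 (Sst) on the log2 scale. No gene was called among 5 thalamus, 7 choroid plexus, 4 hypothalamus, 6 microglia, 6 oligodendrocyte or 6 astrocyte genes tested. All 6 oligodendrocyte genes were lower in 1b-/- mice, 3 with an unadjusted p under 0.05, and their summed level was 16044 to 22111 CPM in the WT and 11369 to 13126 CPM in the 1b-/- libraries. All 6 microglia genes were lower, 3 with an unadjusted p under 0.05, at 430 to 452 CPM summed against 300 to 380 CPM. Of the astrocyte genes 3 were lower and 3 higher, at 1533 to 1640 CPM summed against 1972 to 2019 CPM. All 7 choroid plexus genes were higher, 4 of 5 thalamus genes were lower and 3 of 4 hypothalamus genes were lower. These sums are CPM scaled over all 11 libraries. The part of these markers in the values of the 7 genes was not tested.

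In 1b+/- mice 0 genes of these lists were called by edgeR's QL test. Of the 18 genes of both pathways 16 were lower, with a median log2 fold change of -0.22, and at an unadjusted p under 0.05 there were 9 lower and 1 higher. All 4 indirect pathway genes were lower, each with an unadjusted p under 0.05, with a median of -0.66, while the median over all genes tested was 0.00. Of 7 tested direct pathway genes 6 were lower, with a median of -0.32. Among the lists of medium spiny neuron genes, Tac1 had the smallest adjusted p. It was at 10.4 ± 2.14 CPM in WT (SD, n = 3) and 5.45 ± 0.811 CPM in 1b+/- mice (SD, n = 4), with a log2 fold change of -0.93 (SE 0.16, edgeR QL adjusted p = 0.0777). Penk was at 39.6 ± 26.02 CPM in WT and 16.8 ± 3.43 CPM in 1b+/- mice, with WT values from 20.4 to 69.2 CPM. Scaled over all 11 libraries, the summed indirect pathway genes were at 32.8, 88.2 and 43.5 CPM in WT replicates 1 to 3. The 1b+/- libraries ran from 21.3 to 32.1 CPM. The summed genes of both pathways were at 1768, 2094 and 1771 CPM in the WT libraries and from 1610 to 1670 CPM in the 1b+/- libraries. WT replicate 2 was highest in both sums, and the list results are not given without it.

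Markers of other cell types in 1b+/- mice also had 0 genes called, and most members of some lists lay on one side of 0. All 6 thalamus genes were lower and all 7 choroid plexus genes were higher, with 0 at an unadjusted p under 0.05 in either list. The summed thalamus level was 901 CPM in WT replicate 1, against 350 and 313 CPM in WT replicates 2 and 3. In 1b+/- mice it ran from 351 to 658 CPM. The choroid plexus sums were 781 to 1143 CPM in WT and 63.2 to 2737 CPM in 1b+/- mice. Sums here are CPM scaled over all 11 libraries. Of the 7 GABAergic neuron genes 6 were lower in 1b+/- mice, 5 of them with an unadjusted p under 0.05. Their summed level was 766 to 889 CPM in WT and 676 to 747 CPM in 1b+/- mice. All 5 CA1 genes were higher, 3 with an unadjusted p under 0.05, at 570.2 to 649.6 CPM summed in WT and 599.7 to 720.9 CPM in 1b+/- mice. Of 6 dentate granule cell genes 5 were higher, 3 with an unadjusted p under 0.05, at 163 to 255 CPM summed against 231 to 268 CPM. All 6 oligodendrocyte genes were higher, 2 with an unadjusted p under 0.05, with a median log2 fold change of 0.34, and their sums overlapped (6100 to 10093 CPM in WT, 8746 to 10289 CPM in 1b+/- mice). Among the cAMP and phosphatase genes, Prkacb, a catalytic subunit of cAMP-dependent kinase, had -0.23 (SE 0.04) and the same edgeR QL adjusted p as Tac1, 0.0777. The part of these markers in the values of the 7 genes was not tested.

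The genes most like the 7 in pattern were ranked by the root mean square difference between their centred log2 CPM over the 11 libraries and the mean of the 7 genes. The 8 nearest were Drd1 (0.287), Slc35d3 (0.322), Rxrg (0.371), Rasgrp2 (0.450), Tac1 (0.459), Htr1d (0.469), Drd2 (0.489) and Kcnh4 (0.511). Of the 7 genes themselves, Rgs9 (0.382), Pde10a (0.391) and Ppp1r1b (0.402) lay nearest to their mean and Six3 (1.07) and Adora2a (0.960) farthest. Drd1, Slc35d3 and Rxrg were thus nearer to the mean than any of the 7. That mean was 4.08 and 2.80 in the WT libraries of the homozygous round and from -1.38 to 0.05 in the other 9. The ranking therefore rests mostly on those WT libraries, and it crosses rounds that differ in read type. Within the 7 libraries of the heterozygous round alone, the 5 genes with the highest Pearson's r to the mean of the 7 were Wrnip1 (0.98), Rars (0.98), Bcl2 (0.96), Atmin (0.95) and Pappa2 (0.95). None of these 5 is among the 8 above, and with 7 libraries and so many genes such values are a description only.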

How the data were processed

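Hippocampus RNA-seq counts of 11 mice were analysed. Per the labels and the study's methods, the authors prepared stranded mRNA libraries, used STAR 2.7.2 for alignment to mm9, and took gene-level counts from featureCounts. The deposited values are raw counts, with no normalization. The strand setting of the counting is not given in the sources used here. Each table held 27 symbols turned into dates, at most 0.372% of the counts, which stayed in the totals. Symbols present in both tables (23645) were joined, with Drd1a and Drd1 treated as synonyms.

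edgeR 4.0.16 in R 4.3.3 (TMM, glmQLFit, glmQLFTest) was fitted to the genes that reached 1 CPM in any library. P-values were adjusted by the Benjamini-Hochberg method, and genes under 0.05 were called. The size of the log2 fold change over the root of the F statistic gave the standard error. The fitting code was tested on simulated data. Permutation tests were exact. In the smallest library 1 CPM is 20 counts, and counting error is largest for genes near that level. RPKM used exon lengths of GENCODE vM1, matched for 20653 symbols. Promoters came from RefSeq (GRCm38.p6) and were found for 5 of the 7 genes (Gpr6, Rgs9, Rarb, Pde10a and Six3).

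The members and lists were chosen with earlier results of these data known. Genes named beside the members were, by rule, up to 4 per list with the smallest p in the homozygous comparison or those that define the list, the 8 and the 5 most alike in pattern (sex-linked genes left out), and Scn1a. Ppp1ca, Ppp1cb, Ppp1cc, Pde7b, Rgs7, Rgs11, Eya1, Prkacb, Pdzd2, Elavl2, Sst, Vip and Lhx6 were named after their values were seen. Alternatives were edgeR's likelihood ratio test, DESeq2 1.42.0, a sex term, scaling by RLE or by the upper quartile, the filterByExpr rule or no filter at all, a joint fit of the 11 libraries, and leaving out every library in turn. The labels give no shared cultures, litters or replicate numbers across groups. Libraries of other ages were not analysed here.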

Additional observations from a re-analysis of the deposited data

Results flagged for a closer look

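Of the 7 genes, 6 differed between the mutants in their effect, by edgeR's quasi-likelihood test of the difference itself over 11 libraries. The difference, 1b-/- effect minus 1b+/- effect on the log2 scale, was -4.93 for Adora2a, -4.41 for Gpr6, -4.20 for Rgs9, -3.66 for Pde10a, -3.11 for Rarb and -3.08 for Ppp1r1b, against 27.3% of all genes called in this test. Each rests on the WT libraries of the homozygous round. In those libraries most dentate granule, CA1 and CA3 markers were low and cholinergic markers were high. The part of these markers in the differences was not tested.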

How the results depend on the processing

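The 7 genes kept a negative fold change in 1b-/- mice under all 12 alternatives. With sex as a covariate, which leaves the female 1b-/- library to carry the effect, their log2 fold changes ran from -6.84 to -2.49. The count called, 4 of 7, was 7 with edgeR's likelihood ratio test, 7 with all 11 libraries in 1 fit, and 6 with DESeq2 or no filter. With each library left out in turn it ran from 0 to 7, 0 being the fit without WT replicate 1. A lone library left in a group was assumed to vary like the other group. In 1b+/- mice the count was 0 under all 15 alternatives, and the estimate for Gpr6 changed sign without WT replicate 1 (-0.16), 1b+/- replicate 3 (-0.22) or WT replicate 2 (-0.00), its range over the left-out libraries being -0.22 to 0.36. The smallest adjusted p for a member there was 0.0552, for Rgs9 without WT replicate 1, the fit in which 421 genes were called in all, against 0 with every library. The difference between the effects was called for 6 genes under 17 of 18 alternatives and for 7 without 1b-/- replicate 2. Over all genes the homozygous count went from 531 to 1829 with the likelihood ratio test, 2144 with DESeq2, 1029 without a filter, 5537 with all 11 libraries in 1 fit, 192 without WT replicate 2, and 0 without WT replicate 1. The heterozygous count went from 0 to 191 with the likelihood ratio test, 245 with DESeq2 and 44 without a filter. Scaling within a round in place of over 11 libraries moved the mean log2 difference of the 7 genes from -4.26 to -4.25 in 1b-/- and left it at -0.49 in 1b+/- mice. No paired analysis was possible because the labels give no litter or replicate numbers that link mice of the groups compared. Depth limits Six3 and Gpr6 most, which rested on as few as 9 and 22 counts in a library.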
